A study of Mus musculus with 28 samples.

Results

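The expression of 36 genes of homologous recombination, the Fanconi anaemia pathway and mismatch repair was followed while C10 cells were trans-differentiated. C10 is a mouse Pre-B cell line derived from HAFTL cells, and it carries a CEBPalpha-ER transgene, a fusion that acts in the nucleus once β-estradiol is present. The 36 genes were chosen by symbol, with no use of their values, from the 55450 genes in the RNA-seq table, and all 36 were among the 16415 genes with a mean of at least 0.1 TPM. TPM is the deposited unit, a transcript level corrected for gene length and library total. Induction used 100 nM β-estradiol with 10 nM IL-3 and CSF-1. Cells were taken before it (0h) and after 1h, 12h and 48h, with 3 biological replicates per time (12 libraries) that all carry the transgene. The labels do not say whether the replicates were separate cultures or whether the 0h cells received a vehicle, and no transgene-free cells were induced.

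Homologous recombination repairs double-strand breaks from the sister chromatid: broken ends are resected to single strands, mediators load a recombinase, and the joint molecules are then dissolved or cut. The Fanconi pathway unhooks crosslinks between DNA strands through a nuclear ubiquitin ligase, the core complex, which modifies FANCD2 and FANCI. Mismatch repair removes base mispairs left by replication, and the kinases ATM and ATR with their partners CHK2 and CHK1 signal damage and stalled forks. Many of these genes are known to be transcribed mainly in dividing cells.

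Markers of both identities moved as the labels imply. The summed level of 10 B-lineage markers was 301 to 340 TPM at 0h and 29.9 to 41.9 TPM at 48h, with 1 of them listed at 0 in every 48h library. The sum of 10 macrophage markers went from 5.81 to 7.55 TPM, with 3 of them listed at 0 in every 0h library, to 692 to 806 TPM. A list of 23 proliferation genes went from 287 to 343 TPM at 0h to 7.40 to 8.86 TPM at 48h, and its part in the values below was not tested. Transcripts of 2 loci, CT010467.1 and AY036118, took 70.3% to 82.9% of all TPM in a library. Scaling by the median of ratios, which ignores such dominant genes, was therefore run as well, and its counts stand beside those on the TPM scale. In whole-culture RNA, fewer cells that express a gene and less of its RNA per cell cannot be told apart.

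E2F factors are the known drivers of S-phase transcription, and they bind short GC-rich octamers near transcription starts. RefSeq promoters (GRCm38.p6, from 250 bases before to 50 bases after the start) were at hand for 28 of the 36 genes. At least 1 of the octamers TTTCCCGC, TTTCGCGC, TTTGCCGC and TTTGGCGC was found on either strand in 7 of these 28 genes (25%), against 2.60% of 27025 genes with such a promoter. The 7 genes were Bard1, Brca2, Chek2, Fancg, Msh6, Rad51c and Rmi1. The 28 genes had a median promoter GC content of 59.7% and all promoters one of 52.7%, and the part of GC content in the octamer share was not tested. The box CCAAT, which no octamer contains, was present in 19 of the 28 genes (67.9%) against 41.1% of all. The CHR letters TTTGAA or TTCGAA were present in Atr and Bard1 (7.14%) against 21.7% of all. Shown here are promoters of the genes that stood apart at 48h, Brca2 and Chek2, and of Bard1 and Msh6, which fell, with the E2F octamer in capitals as read on the strand of the gene.
Brca2 promoter, chr5:150522371-150522670, plus strand: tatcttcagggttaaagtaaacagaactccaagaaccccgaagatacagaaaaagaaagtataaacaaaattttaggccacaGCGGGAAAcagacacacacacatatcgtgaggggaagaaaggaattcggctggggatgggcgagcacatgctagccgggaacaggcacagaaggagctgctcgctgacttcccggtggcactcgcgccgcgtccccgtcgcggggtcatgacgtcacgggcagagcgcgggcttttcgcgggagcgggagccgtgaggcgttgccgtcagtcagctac
Chek2 promoter, chr5:110839733-110840032, plus strand: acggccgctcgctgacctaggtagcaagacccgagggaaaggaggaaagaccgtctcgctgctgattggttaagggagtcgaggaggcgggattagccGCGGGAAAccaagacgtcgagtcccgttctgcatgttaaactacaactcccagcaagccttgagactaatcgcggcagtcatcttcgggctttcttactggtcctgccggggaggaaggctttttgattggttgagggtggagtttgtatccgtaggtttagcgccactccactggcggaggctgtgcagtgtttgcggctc
Bard1 promoter, chr1:71102923-71103222, minus strand: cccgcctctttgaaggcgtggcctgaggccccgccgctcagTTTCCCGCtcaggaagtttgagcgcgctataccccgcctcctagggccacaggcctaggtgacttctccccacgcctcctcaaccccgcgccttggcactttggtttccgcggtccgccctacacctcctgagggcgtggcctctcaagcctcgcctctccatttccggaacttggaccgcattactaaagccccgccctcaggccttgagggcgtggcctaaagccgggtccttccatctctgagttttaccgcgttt
Msh6 promoter, chr17:87974800-87975099, plus strand: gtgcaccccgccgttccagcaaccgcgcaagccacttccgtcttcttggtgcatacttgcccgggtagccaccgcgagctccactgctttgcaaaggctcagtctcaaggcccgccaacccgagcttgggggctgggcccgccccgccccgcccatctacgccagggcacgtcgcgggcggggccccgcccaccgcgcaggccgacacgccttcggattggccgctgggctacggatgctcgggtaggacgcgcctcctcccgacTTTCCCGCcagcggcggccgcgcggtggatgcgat
The Brca2 and Chek2 promoters hold the same octamer in the same orientation, and those of Bard1 and Msh6 hold its reverse complement. Rad51c, which fell and is not shown, holds GCGGGAAA in the orientation of Brca2 and Chek2, so this orientation was not particular to genes that did not fall. The octamer of Msh6 lies after the transcription start and those of the other 3 genes shown before it. Rad51c and Rmi1, not shown, also hold an octamer after a start. A match of letters is no evidence of binding.

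The repair genes as a group were far lower at 48h than at 0h. Of the 36 genes, 32 (88.9%) were lower at 48h, against 27.2% of the 16415 genes tested, and all 32 were lower by more than 1 on the log2 scale, which 23.1% of all genes were. Brca2 alone was higher, against 15.9% of all genes, and Chek2, Xrcc3 and Top3a did not pass the test (limma on log2(TPM + 0.1), Benjamini-Hochberg adjusted p under 0.05). The median log2 fold change was -2.25 over the 36 genes and -0.18 over all genes tested. With median-of-ratios scaling 29 were lower (22.0% of all genes) and Brca2 was still the 1 gene higher (24.5% of all genes), with a median of -1.96. The 3 libraries at 48h lay below all 3 at 0h for 34 of the 36 genes, as they did for 30.8% of all genes, and above them for Brca2, as for 19.2%. The libraries of the remaining gene, Chek2, overlapped.

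**Figure D1:**
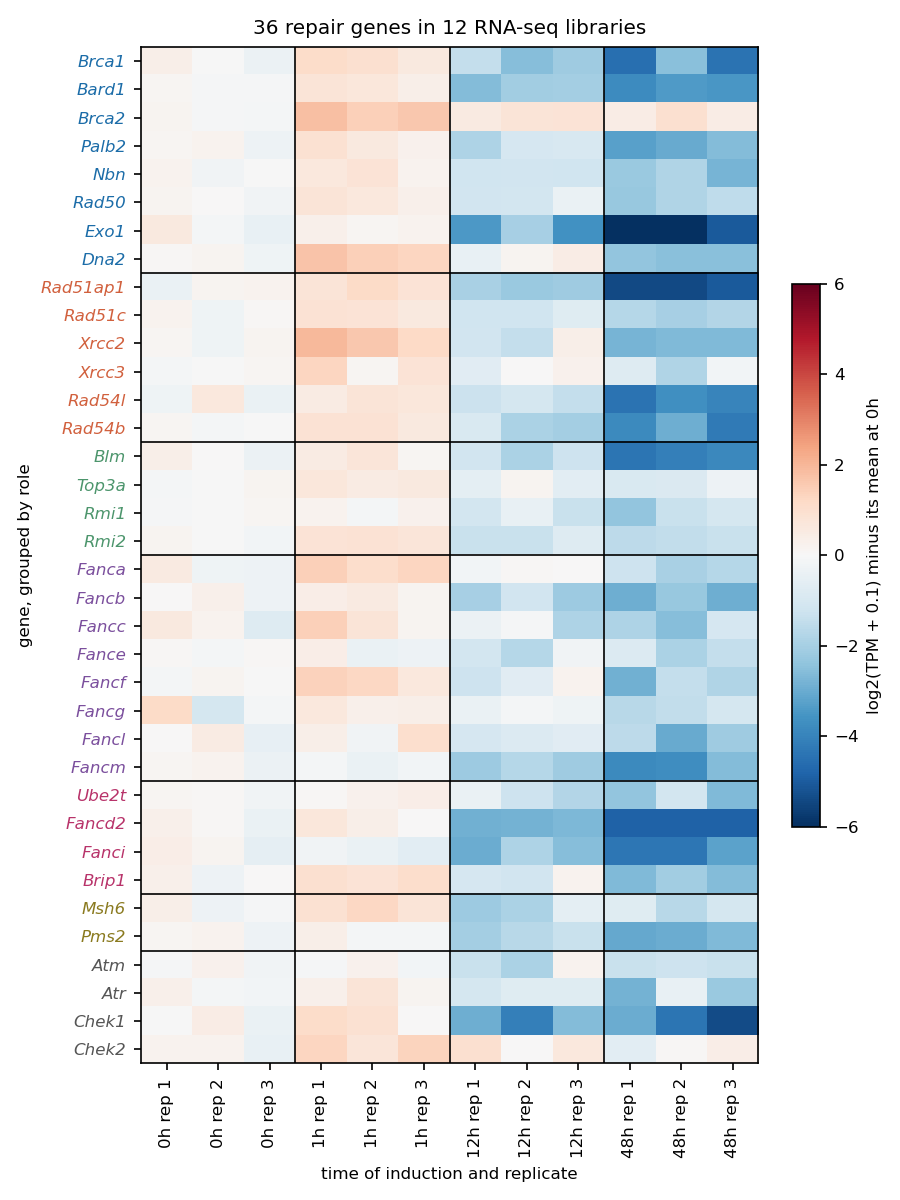
Colour gives log2(TPM + 0.1) minus its mean at 0h for 36 repair genes (rows, grouped by role) in 12 libraries (columns, 3 per time). The 1h columns are pale red, the 12h columns mostly blue and the 48h columns darker blue, while the rows of Brca2, Chek2, Top3a and Xrcc3 stay pale.

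Among the 8 genes that process broken ends and mediate recombinase loading, 7 fell and Brca2 rose. Exo1, an exonuclease of end resection (chr1:175880581-175913489, mm10), had 9.44, 5.70 and 4.48 TPM in the 3 libraries at 0h. Its 48h libraries were listed at 0, 0 and 0.09 TPM. All 3 lay far below 0h, and the fitted log2 difference of -5.68 ± 0.44 (SE, limma, Benjamini-Hochberg adjusted p = 1.06e-06) depends on the pseudocount because 2 libraries were at 0. Brca1, a ubiquitin ligase subunit that steers breaks towards recombination (chr11:101488764-101551955), was at 4.08, 3.12 and 2.41 TPM at 0h and at 0.04, 0.46 and 0.05 TPM at 48h. Its second 48h library was about an order of magnitude above the other two and still below every 0h library, and the change was -3.83 ± 0.49 (adjusted p = 6.03e-05). Its ligase partner Bard1 fell by 3.54, and Palb2, the bridge between the BRCA1 and BRCA2 proteins, fell by 2.95, each on the log2 scale. Dna2, another resection nuclease, fell by 2.45, and Nbn and Rad50, subunits of the complex that first binds broken ends, fell by 2.27 and 1.87.

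Brca2, whose product loads the recombinase on single-stranded DNA (chr5:150522630-150570329), went the other way. Its libraries held 4.60, 3.95 and 3.83 TPM at 0h and 14.82, 11.14 and 12.92 TPM at 1h. Later libraries held 6.06, 7.05 and 7.27 TPM (12h) and 5.73, 8.08 and 5.63 TPM (48h). Every library after induction lay above every 0h library, with the peak at 1h. The change at 48h was 0.62 ± 0.19 on the log2 scale (limma, Benjamini-Hochberg adjusted p = 0.0183) and 1.03 after median-of-ratios scaling. The call rested on few libraries: the adjusted p was 0.0545 without 0h replicate 2, 0.0519 without 0h replicate 3, 0.0713 without 48h replicate 2 and 0.073 without replicate 3 of every time. Only 41 bases of its exons overlap another annotated gene, the antisense Gm42529.

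**Figure D2:**
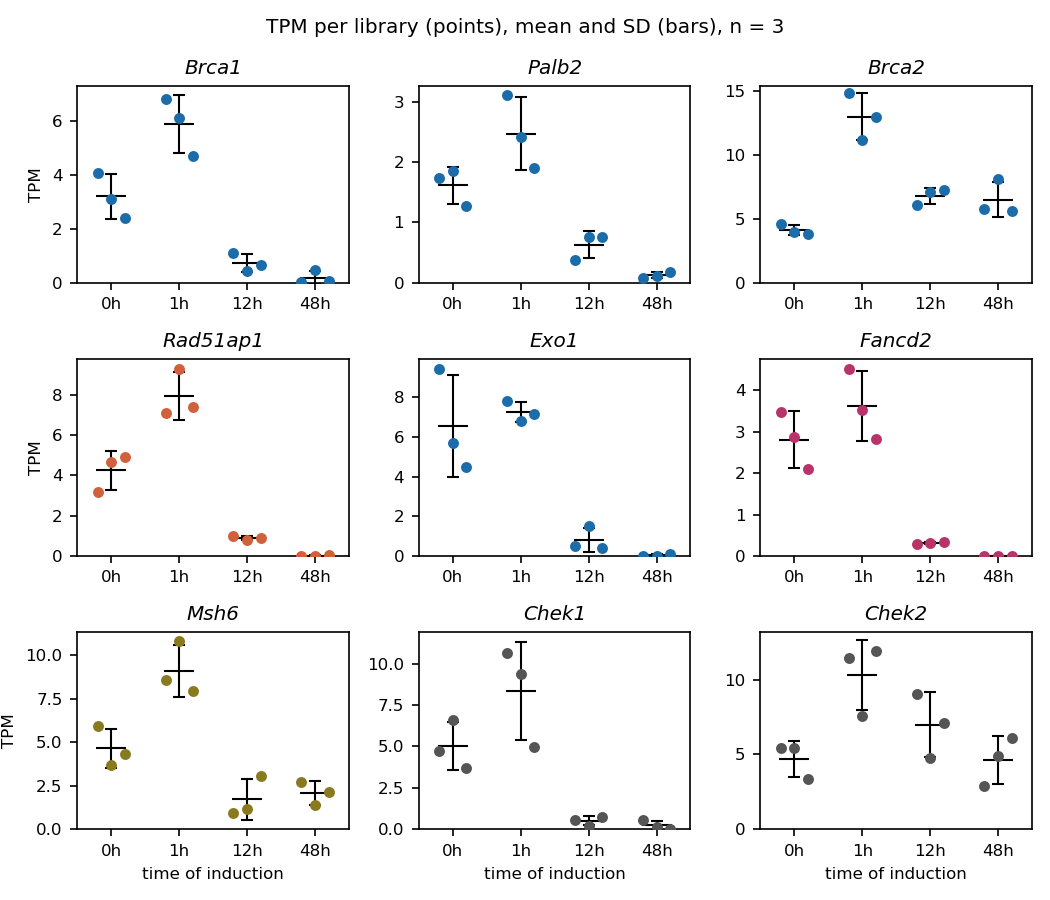
TPM (vertical axis, from 0, a separate scale for each gene) of 9 repair genes in the 3 libraries of each time (points), with mean and SD (bars). Brca2 and Chek2 lie between 2.89 and 8.08 TPM at 48h, while Exo1, Rad51ap1 and Fancd2 are at or near 0.

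Of the 6 genes of strand exchange, 5 fell. Rad51ap1, whose product stimulates the invasion of the intact strand (chr6:126923050-126939587), was at 3.16, 4.69 and 4.91 TPM at 0h, at 1.00, 0.81 and 0.89 TPM at 12h and at 0, 0 and 0.03 TPM at 48h. The 3 times did not overlap, and the fitted difference at 48h was -5.29 ± 0.24 (limma, Benjamini-Hochberg adjusted p = 1.68e-08), which again depends on the pseudocount. Rad54l and Rad54b, a pair of translocases that act on the joined strands, fell by 4.03 and 3.68 on the log2 scale. Rad54l shares 1184 exon bases with Lrrc41 and Rad54b shares 2068 with Fsbp, so their reads are uncertain to that extent. Xrcc2 and Rad51c, paralogs of the recombinase, fell by 2.69 and 1.80. Xrcc3, another paralog (chr12:111803192-111813873), was at 0.61, 0.67 and 0.75 TPM at 0h and at 0.36, 0.12 and 0.59 TPM at 48h. Its libraries at 48h were all lower but widely spread, and the difference of -0.91 ± 0.44 did not pass the test (adjusted p = 0.123).

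The 4 genes of the complex that dissolves double Holliday junctions separated into its helicase and the rest. Blm, the helicase (chr7:80454733-80535119), was at 6.50, 5.12 and 3.96 TPM at 0h and at 0.15, 0.20 and 0.25 TPM at 48h, a change of -4.13 on the log2 scale. Top3a, the topoisomerase of the same complex (chr11:60740058-60777365), was at 1.22, 1.34 and 1.52 TPM at 0h and at 0.68, 0.71 and 1.08 TPM at 48h. It was lower in 3 of 3 libraries by -0.68 ± 0.26, short of the threshold (limma, Benjamini-Hochberg adjusted p = 0.0551). The scaffold subunits Rmi1 and Rmi2 fell by 1.59 and 1.46. Rmi1 shares 330 exon bases with the neighbouring Hnrnpk on the opposite strand, and the libraries came from a kit that does not mark strand. Hnrnpk had a mean of 111 TPM at 0h and 43.2 TPM at 48h. The mean of Rmi1 was 1.40 TPM at 0h and 0.43 TPM at 48h, and the part of Hnrnpk reads in it was not tested.

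All 8 genes of the Fanconi core complex were called lower on the TPM scale, with a median of -1.93 on the log2 scale. After median-of-ratios scaling 7 of the 8 were lower, Fancg being lost (-1.06, limma, Benjamini-Hochberg adjusted p = 0.051), quantile normalization lost Fancc and Fance, and leaving out 48h replicate 2 lost all 3. Fancm, the translocase that anchors the complex to DNA (chr12:65075603-65132058), fell furthest, from 3.97, 4.23 and 2.83 TPM at 0h to 0.16, 0.18 and 0.51 TPM at 48h (-3.39 ± 0.32). Fance, which links the core to FANCD2 (chr17:28313519-28326572), fell least, from 3.31, 2.93 and 3.31 TPM to 1.76, 0.77 and 1.12 TPM (-1.39 ± 0.39, limma, Benjamini-Hochberg adjusted p = 0.0129). The libraries at 0h and 48h did not overlap for either gene. Fancb fell by 2.71, Fancl, the ligase subunit itself, by 2.23, Fancf by 2.05, Fancc by 1.81, Fanca by 1.63 and Fancg by 1.41. Fancg was uneven at 0h, with 3.72, 0.74 and 1.50 TPM. Fanca shares 920 exon bases with Zfp276, Fancl 462 with Vrk2 and Fancf 253 with Gas2.

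The 4 genes at and after the substrate of the core complex also fell. Fancd2, the substrate whose ubiquitination is the central step of the pathway (chr6:113531682-113597017), was at 3.47, 2.87 and 2.10 TPM at 0h, at 4.53, 3.52 and 2.83 TPM at 1h and at 0.29, 0.30 and 0.34 TPM at 12h. It was listed at 0 TPM in all 3 libraries at 48h, the 1 gene of the 36 for which this was so, and its fitted difference (limma, Benjamini-Hochberg adjusted p = 6.92e-08) is set by the pseudocount and is no fold. Its partner Fanci was at 2.55, 2.14 and 1.29 TPM at 0h and at 0, 0 and 0.12 TPM at 48h, with 921 exon bases shared with Polg. Ube2t, the ubiquitin-conjugating enzyme of the core complex (chr1:134962565-134974162), was at 1.02, 0.98 and 0.77 TPM at 0h and at 0.10, 0.38 and 0.06 TPM at 48h (-2.03 ± 0.44). Brip1, a helicase that partners BRCA1, fell by 2.45.

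Both mismatch repair genes fell on the TPM scale. Pms2, an endonuclease subunit (chr5:143909964-143933968), went from 3.41, 3.59 and 2.52 TPM at 0h to 0.29, 0.31 and 0.42 TPM at 48h, a log2 change of -2.89. Msh6, a subunit of the mismatch sensor (chr17:87975062-87990892), was at 5.91, 3.70 and 4.30 TPM at 0h, at 0.93, 1.15 and 3.04 TPM at 12h and at 2.72, 1.37 and 2.16 TPM at 48h. It was the 1 gene of the 36 with its lowest mean at 12h. Its change at 48h was -1.14 ± 0.39 (limma, Benjamini-Hochberg adjusted p = 0.0337) and was no longer called after median-of-ratios scaling (-0.75).

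The damage kinases divided within a pair. Chek1, the effector of ATR (chr9:36708482-36727065), was at 4.71, 6.57 and 3.71 TPM at 0h and at 0.53, 0.14 and 0.02 TPM at 48h, and fell by 4.24 ± 0.57 (limma, Benjamini-Hochberg adjusted p = 9.31e-05). Chek2, the effector of ATM (chr5:110839979-110874145), held 5.42, 5.42 and 3.33 TPM at 0h and 11.45, 7.60 and 11.90 TPM at 1h. Its later libraries held 9.08, 4.73 and 7.12 TPM (12h) and 2.89, 4.88 and 6.12 TPM (48h). Its 0h and 48h libraries overlapped, with a difference of -0.06 ± 0.33 (adjusted p = 0.923) that was 0.35 after median-of-ratios scaling. No exon base of Chek2 is shared with another gene. Atr fell by 1.83 and Atm by 1.31 on the log2 scale. The calls of Atm, Fancc, Fance, Fancg and Msh6 were all lost without 48h replicate 2, which left 27 genes lower. The call of Atm was lost without any 1 of the 6 libraries, that of Msh6 also without 0h replicate 1, 0h replicate 3 or 48h replicate 3. Fancc lost it also without 0h replicate 1, 0h replicate 2 or 48h replicate 1, and Fancg without 0h replicate 1 or 48h replicate 1. Without 48h replicate 3, Top3a and Xrcc3 passed as lower.

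**Figure D3:**
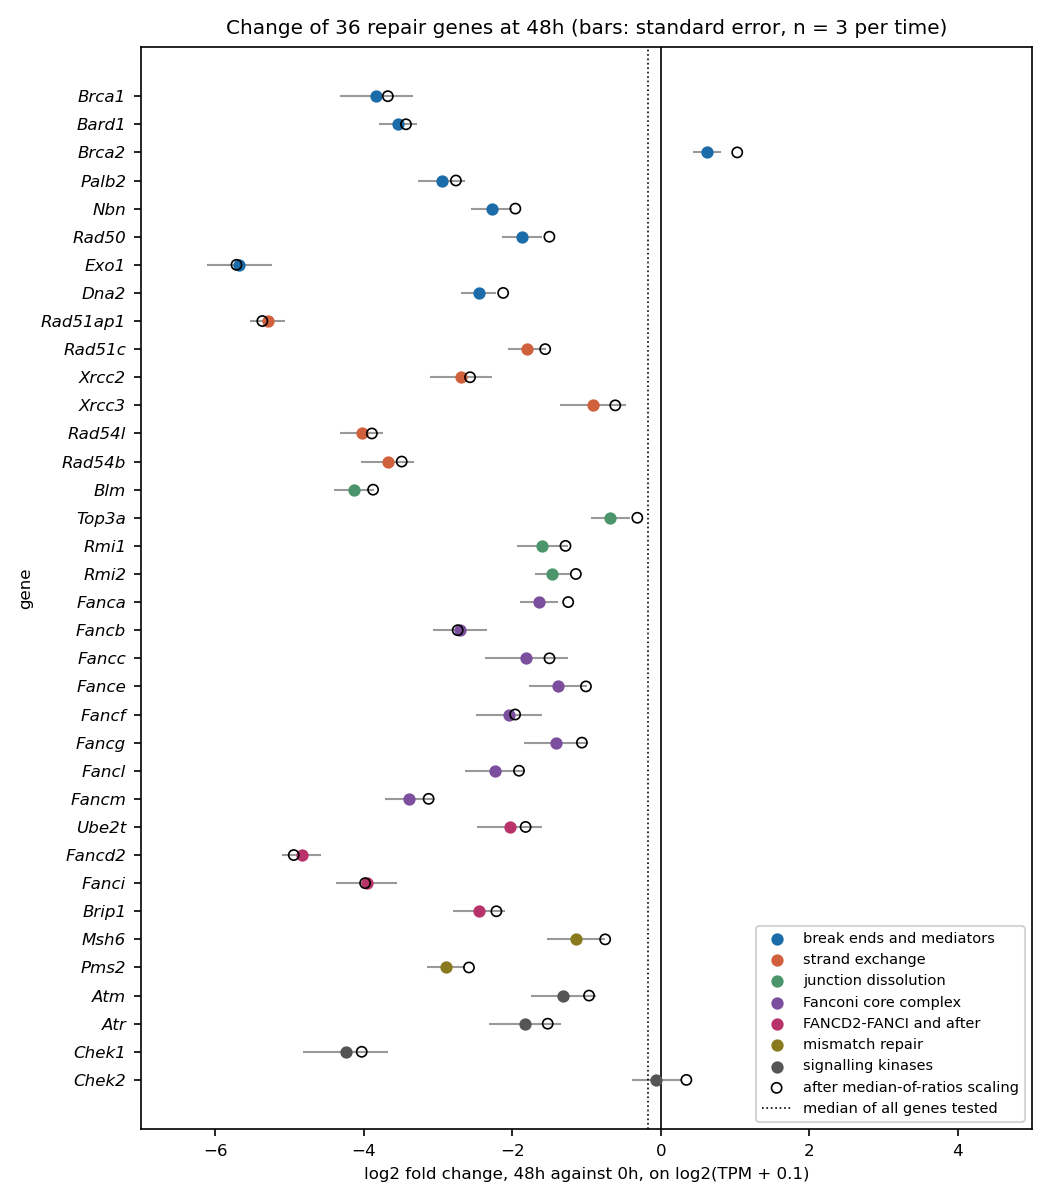
Log2 fold change at 48h against 0h (horizontal axis) of 36 repair genes (rows), as estimated on log2(TPM + 0.1) (filled points, coloured by role, with SE) and after median-of-ratios scaling (open circles). Brca2 lies to the right of 0 on both scales, Chek2 at -0.06 and 0.35, and the other genes to the left of the median of all genes tested (dotted line, -0.18).

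Ratios between repair genes within a library do not depend on how the library was scaled. The Brca2 to Palb2 ratio of TPM was 2.14 to 3.02 before induction, then 4.62 to 6.80 (1h), 9.40 to 16.4 (12h) and 31.3 to 73.5 (48h). The Brca2 to Brca1 ratio went from 1.13 to 1.59 at 0h to 17.6 to 143 at 48h, and the Chek2 to Chek1 ratio from 0.825 to 1.15 at 0h to 5.45 to 306 at 48h. In each of these the 48h libraries lay above all 0h libraries, by a mean of 4.41, 5.64 and 5.35 on the log2 scale. These pairs were chosen after the values were seen, to set the genes that did not fall over partners that did, so the ratios are a description and were not tested. Between Rad50 and Nbn, subunits of 1 complex, the ratio was 1.43 to 2.04 at 0h and 1.76 to 5.36 at 48h, and the groups overlapped. The 48h values of Brca1 and Chek1 were near 0, so the upper ends of their ratios are poorly determined.

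**Figure D4:**
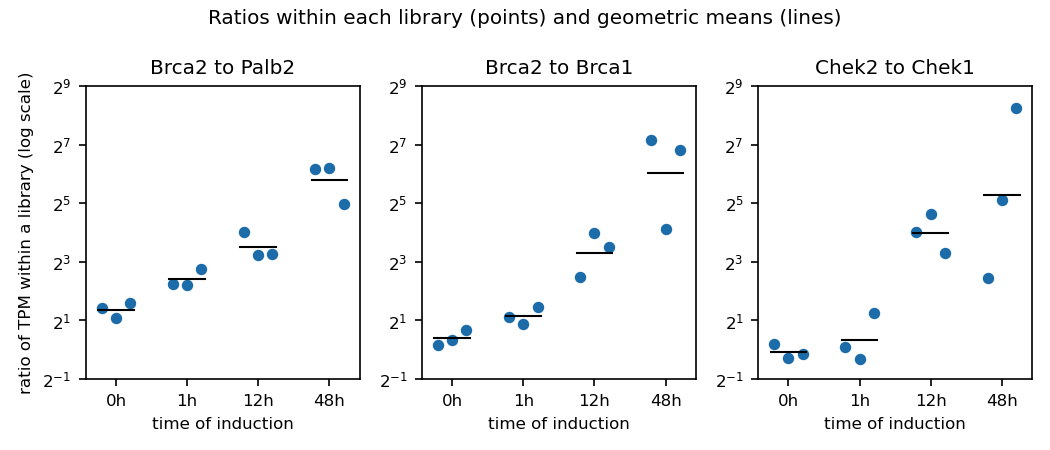
Ratio of TPM within a library (vertical axis, log scale) for Brca2 to Palb2, Brca2 to Brca1 and Chek2 to Chek1 at each time, with points for the 3 libraries and lines for their geometric mean. The 12h and 48h libraries lie above every 0h library in each panel.

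At 12h much of the group was already called lower. Against 0h, 19 of the 36 were lower, where 7.82% of all genes tested were, and Brca2 was higher (22.3% of all genes), with 16 that did not pass the test (limma, Benjamini-Hochberg adjusted p under 0.05). The median log2 difference was -1.09 over the 36 and 0.34 over all genes. After median-of-ratios scaling 25 were lower (14.5% of all genes) and 0 higher (16.0%). Brca2 was then 0.37 higher with an adjusted p of 0.121 from limma, and Dna2, at 0.05 on the TPM scale, was at -0.27. All 19 were also lower at 48h. They were led by Chek1 (-3.20), Exo1 (-3.02), Fancd2 (-2.80), Fanci (-2.46) and Bard1 (-2.25). The other 13 genes lower at 48h were not called at 12h: Atm, Atr, Brip1, Dna2, Fanca, Fancc, Fance, Fancf, Fancg, Fancl, Rmi1, Ube2t and Xrcc2. This division is one of passing or missing the threshold and was not tested: Ube2t (-1.14) and Atm (-1.01) missed it with estimates as low as that of Rad50 (-0.87), which passed. After median-of-ratios scaling 6 of the 13 were lower at 12h: Atm, Brip1, Fance, Rmi1, Ube2t and Xrcc2. All 8 core complex genes had negative estimates at 12h, with 2 called, Fancb and Fancm, and 3 after rescaling. Fanca, a core complex subunit, had an estimate of -0.02 at 12h, with 7.38, 4.26 and 4.16 TPM at 0h, 4.51, 5.32 and 5.20 TPM at 12h and 2.11, 1.24 and 1.47 TPM at 48h. Zfp276, which overlaps its exons on the opposite strand, had means of 0.98, 4.13, 4.27 and 1.74 TPM in the order of the times. The part of Zfp276 reads in the Fanca values was not tested. Of the 19, Rad50 (-0.87) and Msh6 (-1.55) lost the call without 12h replicate 1 or 12h replicate 2, and Rad50 also without 0h replicate 1 or 0h replicate 2. Without 12h replicate 3, Atm, Brip1, Fance and Xrcc2 passed as lower at 12h. Rmi1 did so without 12h replicate 2 and Ube2t without 12h replicate 1. A gene not called at 12h is not shown to be unchanged there.

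At 1h no repair gene was lower (1.41% of all genes were) and 7 were higher, a share of 19.4% where 24.1% of all genes tested were higher. The median log2 difference was 0.60 over the 36 genes and 0.59 over all genes, the same to within 0.01. Dna2 was at 2.84, 3.05 and 2.28 TPM at 0h and at 8.94, 7.56 and 6.69 TPM at 1h. Xrcc2 was at 1.05, 0.77 and 1.06 TPM at 0h and at 3.93, 3.17 and 2.34 TPM at 1h. For both genes every 1h library lay above every 0h library, as for 17 of the 36 genes in all and for 40.8% of all genes tested. The changes were 1.62 for Brca2, 1.60 for Xrcc2, 1.47 for Dna2, 1.25 for Fanca and 1.12 for Chek2, with Rad51ap1 (0.90) and Rmi2 (0.80) below 1. Zfp276, whose exons overlap those of Fanca, had a mean of 0.98 TPM at 0h and 4.13 TPM at 1h, and its part was not tested. On the median-of-ratios scale only Brca2 (0.97) and Dna2 (0.82) passed as higher, 2 genes where 5.42% of all were, and the median of the 36 was -0.03. Without 1h replicate 1 or without 1h replicate 2 the number higher was 4. The call of Xrcc2 was lost in both cases and without 0h replicate 2, and that of Chek2 without 0h replicate 2, 0h replicate 3, 1h replicate 1 or 1h replicate 3.

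The group was also compared between the induced times. From 1h to 12h, 28 of the 36 genes were lower (15.0% of all genes) and 0 higher (6.98%), with Chek1 (-3.90), Exo1 (-3.23), Fancd2 (-3.16), Rad51ap1 (-3.00) and Brca1 (-2.91) in front. After median-of-ratios scaling 24 were lower (8.77% of all genes) and 0 higher (11.3%). From 12h to 48h, 21 were lower (31.7% of all genes) and 0 higher (4.10%), led by Rad51ap1 (-3.19), Rad54l (-2.77), Blm (-2.69), Exo1 (-2.66) and Dna2 (-2.50). Rad54l shows both steps, with 4.09, 4.95 and 4.62 TPM at 1h, 1.12, 1.32 and 1.02 TPM at 12h and 0.04, 0.13 and 0.09 TPM at 48h. In this second step median-of-ratios scaling left 12 lower (11.9% of all genes) and 2 higher (10.5%), Brca2 (0.66) and Msh6 (1.12). In all, 20 genes were called lower in both steps, and 12 of these in both steps after rescaling: Bard1, Blm, Brip1, Dna2, Exo1, Fanca, Fancd2, Palb2, Rad51ap1, Rad54b, Rad54l and Xrcc2. The share of all genes lower in both steps was not counted. It cannot exceed the 15.0% lower from 1h to 12h, or 8.77% after rescaling. Missing a call in 1 step shows no absence of a fall there, as for Chek1 from 12h to 48h (-1.04, limma, Benjamini-Hochberg adjusted p = 0.189) and Fancl from 1h to 12h (-1.21, adjusted p = 0.0528), whose libraries at 12h all lay below those at 1h. No call was made in either step for Atm, Atr, Chek2, Fancc, Fance, Fancg and Xrcc3. The summed level of the 36 genes was 94.5 ± 14.8 TPM before induction (SD, n = 3), then 156 ± 15.4, 49.1 ± 5.50 and 24.6 ± 2.07 TPM in the order of the times. The highest mean was at 1h for 32 genes and the lowest at 48h for 34. These sums and ranks are on the TPM scale, where the median of all genes was also 0.59 higher at 1h than at 0h. After median-of-ratios scaling 16 of the 36 had an estimate above 0 at 1h, with a median of -0.03. The shares of all genes highest at 1h or lowest at 48h were not counted.

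Other genes of the same pathways, from lists drawn up by function, were counted beside them at 48h. Of all genes tested, 27.2% were lower and 15.9% higher, or 22.0% and 24.5% after median-of-ratios scaling. Of 34 other recombination genes tested, 17 were lower and 1 higher, with a median log2 difference of -0.96, and 14 were lower and 2 higher after median-of-ratios scaling. Of 17 other Fanconi and crosslink genes, 10 were lower and 1 higher (median -1.27), after rescaling 9 and 2. Of 16 other mismatch repair and associated replication genes, 14 were lower and 0 higher (median -2.17), after rescaling 14 and 1. Of 18 other checkpoint genes 16 were lower and 0 higher (median -2.09), after rescaling 14 and 0. The shares of the lists were not tested against each other. The largest mover of the mismatch list was Lig1, the ligase that seals replication and repair nicks (-7.01). All 23 proliferation genes were lower on both scales, with a median of -5.45 on the TPM scale. This median cannot be ranked against the repair genes, because with 0.1 TPM added a gene low at 0h cannot fall that far. The median 0h level of the 36 repair genes was 2.18 TPM. Fancd2, at 0 TPM in every 48h library, had a fitted difference of -4.84.

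Promoter Capture Hi-C, which lists DNA fragments that contact a baited promoter fragment, was deposited as 1 list per time from 2 merged replicates, so its counts have no replicate error. Of the 36 genes, 35 had a start on a bait (39 baits), Fanca being the exception, and for 23 of them the bait also held the start of another gene. Their baits had 504, 424, 453 and 449 interactions in the order of the times. The median per gene was 10, 8, 9 and 8, against 8, 7, 7 and 7 over 11817 expressed genes with a bait. Of the interactions at 0h, 54.0% were listed again at 48h (Wilson 95% interval 49.6% to 58.3%, counting error only), and over all baits 55.9% were. Interactions of the same bait are not independent, so this interval is too narrow. Fancc alone had 89 of the 504 interactions at 0h, and 78 of its 89 were listed again at 48h. No statement on likeness to all baits is drawn from the interval. From 0h to 48h the number of interactions was lower for 21 genes (60%, against 49.0% of expressed genes), higher for 13 (37.1% against 39.7%) and equal for 1. No interaction joined the baits of 2 of these genes in any list.

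The number of contacts of single promoters went both ways among genes whose RNA fell. In the order of the times, Fancm had 64, 50, 42 and 15 interactions, at a median distance of 61.9 kb before induction, from a bait that also holds the start of Fkbp3. Fancd2 had 12, 17, 16 and 3, from a bait shared with Emc3. Blm, whose RNA also fell, had 4, 10, 16 and 22 interactions from a bait of its own. Xrcc2, likewise alone on its bait, had 11, 8, 13 and 23. Brca2 had 14, 19, 16 and 26 over 2 baits, which between them also hold starts of Zar1l and Gm23641. Chek2, the other gene that did not fall, had 5, 6, 6 and 2, from a bait shared with Hscb. Contacts of a shared bait cannot be assigned to 1 of its genes. Brca1 and Chek1 had few at any time, with 3, 0, 1 and 1 for the first and 7, 5, 3 and 3 for the second. The bait of Brca1 also holds the start of Nbr1. Fancc had the most, with 89, 70, 93 and 95 over 2 baits, of which 3, 3, 4 and 0 came from the bait at the annotated gene start. A start of Gm16133 also lies on its baits.

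**Figure D5:**
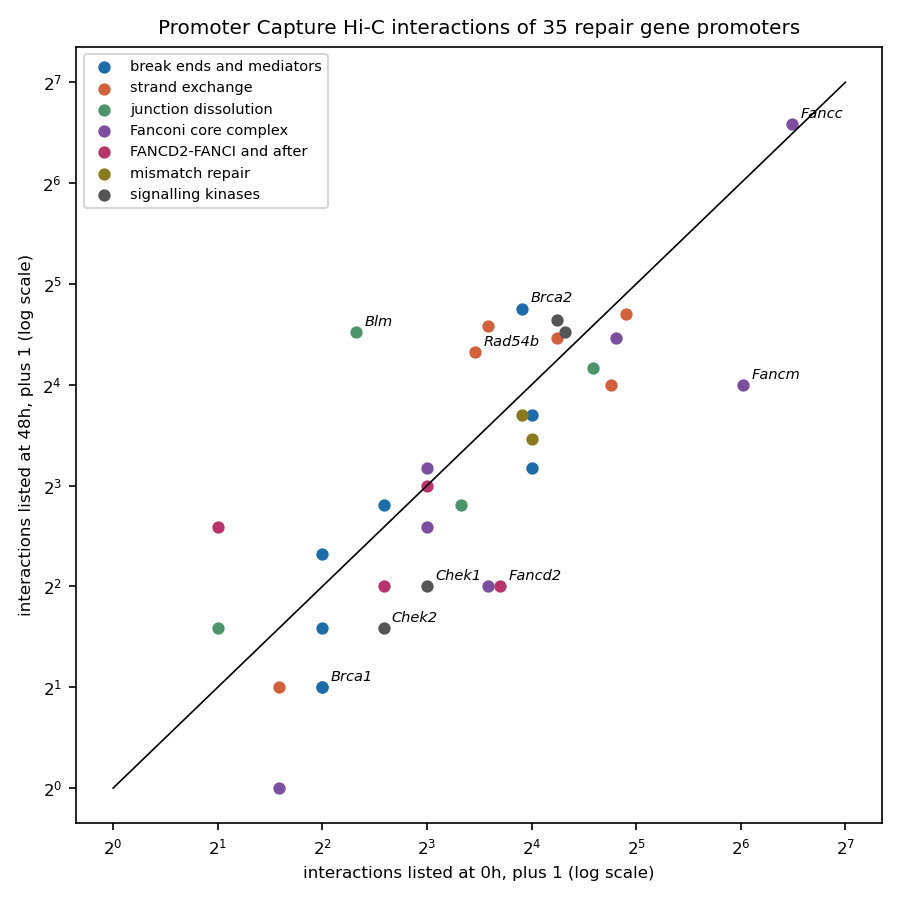
Number of listed Promoter Capture Hi-C interactions, plus 1, at 0h (horizontal axis) and 48h (vertical axis), both on log scales, for 35 repair genes (points, coloured by role, selected genes named), with the line of equal numbers. Fancm and Fancd2 lie well below the line with 15 and 3 interactions at 48h, and Blm well above it with 22.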

How the data were processed

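Values came from 12 RNA-seq libraries and 4 lists of Promoter Capture Hi-C interactions, and the Hi-C maps were not used here. Per the labels and the study's methods, the authors trimmed reads with Trim Galore 0.6.2, mapped them to mm10 with HISAT2 2.1.0, merged technical replicates and deposited TPM values from RSEM. TPM keep no depth, so the precision of low values is unknown, and reads of genes with shared exon bases (18 of the 36) may be assigned to either. The deposited 0h capture list holds a CHiCAGO score of at least 5 per interaction. The third number in the 1h, 12h and 48h lists has no stated unit and was not used.

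All genes whose mean reached 0.1 TPM (16415) were fitted in 1 model of all 12 libraries with limma 3.58.1 (R 4.3.3, eBayes with trend) on log2(TPM + 0.1), which understates changes of low genes. Calls have a Benjamini-Hochberg adjusted p under 0.05 over all genes tested. Errors of log2 changes are SE. The fit was tested on simulated data for the 48h comparison (16415 genes): it recovered 94% of genes changed by -3, 76% by -2, 22% by -1 and 32% by 1, and called 6 of 16215 unchanged genes. Only genes with a mean log2(TPM + 0.1) above 0 at 0h were changed, 50 per size, with normal noise and no scale difference between libraries. The real comparison called 4466 genes lower and 2611 higher, so these rates are not the power or error of its calls. Since replicates are named as biological without further detail, p-values measure the spread between these libraries.

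A gene's interactions were those of baits that hold one of its GENCODE M21 starts (mm10). Promoters came from RefSeq GRCm38.p6. Python 3.11.15, pandas 2.3.3 and scipy 1.17.1 were used otherwise. Genes were grouped by role. Values of every library were given for the largest and smallest change at 48h of each role, for genes higher or not called, and for genes past 1 at 1h and between induced times (at most 5 each). The gene ratios, and values of Brca1, Palb2, Fanci, Fanca, Fancg and the genes named for contacts were added after their values were seen. The genes and lists were chosen with earlier results of these data known.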

Additional observations from a re-analysis of the deposited data

How the results depend on the processing

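Counts of repair genes called lower at 48h were 27 to 32 over the alternatives and 27 to 32 with each library left out, and at 12h 15 to 25 and 18 to 23. Over the alternatives that tested 16415 genes, 3614 to 4487 of these were lower at 48h and 1112 to 2374 at 12h. With each library left out, 3902 to 4540 were lower at 48h and 918 to 1327 at 12h. The 12h to 48h step gave 12 lower with median-of-ratios scaling and 13 with a pseudocount of 1 or quantile normalization, and the 2 rescalings named first and last also gave 2 higher. Of the 16415 genes tested, 1954, 4872 and 2086 were lower in this step under these settings in the order named. The 2 rescalings gave 1730 and 1633 of them higher. At 1h the number higher was 2 under all 3 rescalings (median of ratios, without the 20 most abundant genes, quantile), 14 with a pseudocount of 1, 12 in a fit to the 6 libraries compared, and 4 to 7 with each library left out. Of the 16415 genes tested, 889, 866 and 758 were higher at 1h under the 3 rescalings. With a pseudocount of 1 it was 4132, in the fit to 6 libraries 3760, and with each library left out 2340 to 3679. The number higher at 12h was 0 under the 3 rescalings, where 2622, 2636 and 2337 of all genes were higher. At 48h it was 0 to 1 with each library left out, where 2204 to 2503 of all genes were higher. The cause was not tested. With a minimum mean of 1 TPM, 29 of the genes were tested, which gave the low ends of 27 at 48h and 15 at 12h over the alternatives. Of the 9331 genes then tested, 3885 were lower at 48h and 1092 at 12h. The lowest counts among the alternatives that tested all 36 were 28 at 48h (quantile normalization) and 18 at 12h (fit to the 6 libraries compared). Of the 16415 genes tested, 3717 and 1178 were lower there. Interactions at 0h with a score of at least 10 had a median of 2 per gene, and 83.1% of 0h interactions had a partner within 10 kb at 48h. Of the 36 genes, 26 kept their direction and side of the threshold at 48h under every alternative run. Against 0h at 12h and 48h, where all 36 genes were followed, changes of sign were in genes that were not called. Chek2 at 48h was at 0.35, 0.27 and 0.30 under the 3 rescalings. With a library left out it was at -0.29 to 0.24, and without replicate 3 of every time at -0.52. Dna2 at 12h was at -0.27, -0.16 and -0.23 under the 3 rescalings. With a library left out it was at -0.14 to 0.29, and without replicate 3 of every time at -0.26. The others changed sign with a library left out: Fanca at 12h (-0.16 to 0.24), Fancg at 12h (-0.77 to 0.32) and Xrcc3 at 12h (-0.34 to 0.13). In the other comparisons median-of-ratios scaling moved the number of genes with an estimate above 0 from 33 to 16 at 1h and from 1 to 7 between 12h and 48h. The main fit did not pair libraries by replicate number. Of 18 same-number pairs, 7 had a correlation over 0.1 (-0.0123 to 0.257 over the 18), and 7 of 12 libraries correlated best with their own number. Of the 7 pairs over 0.1, 5 were among the 6 of replicate 3 (0.0698 to 0.257), whose libraries carry the last sample numbers in the labels. Without replicate 3 of every time, chosen after seeing the data and with 2 libraries per time, 28 genes were lower and 0 higher at 48h, 18 and 0 at 12h, and 3 higher at 1h. Of all genes, 4138 were then lower and 2018 higher at 48h, 1160 and 2095 at 12h, and 2459 higher at 1h. With the replicate block 32 genes were lower at 48h and 1 higher, where 4482 and 2590 of all genes were. TPM give no depth, which limits what can be said of values near 0.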

Other observations

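Excision repair pathways, which mend damaged bases and bulky lesions from 1 intact strand, were also lower at 48h. Of 19 nucleotide excision repair genes tested, 12 were lower and 0 higher at 48h (limma, Benjamini-Hochberg adjusted p under 0.05; of all genes 27.2% were lower and 15.9% higher), with a median log2 difference of -1.10, and 10 lower and 2 higher after median-of-ratios scaling (median -0.74). At 12h 0 were lower and 3 higher (7.82% and 22.3% of all genes), and 3 lower and 2 higher after rescaling. After rescaling, 22.0% of all genes were lower and 24.5% higher at 48h, and 14.5% and 16.0% at 12h. Of 21 base excision repair genes, 13 were lower and 0 higher at 48h (median -1.37), or 12 and 1 after rescaling (median -1.09). At 12h 5 of them (23.8%) were lower and 3 higher, or 6 and 3 after rescaling. The summed level of the nucleotide excision genes was 92.9 to 105 TPM at 0h, 89.3 to 125 TPM at 12h and 40.8 to 43.2 TPM at 48h, and that of the base excision genes 87.6 to 99.2, 39.7 to 63.6 and 15.3 to 21.5 TPM. Apex1, the endonuclease that cuts at abasic sites, had the lowest estimate of the base excision list at 48h (-5.08), and Gtf2h4, a subunit of the helicase complex that opens DNA around lesions, that of the nucleotide excision list (-2.83). Differences between these lists and the recombination genes were not tested.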
